A study of Oryza sativa with 9 samples.

Results

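Chromosome 11 of rice (Oryza sativa) holds 7814 of the 105692 gene models that each deposited file lists. All models placed on it were taken and ordered by their start. Of these, 2422 carry an OS identifier and are called annotated, 839 carry only a running number and are called numbered (model 9809, for example), and 4553 are noncoding. In all, 5364 were listed at 0 in every library, and 1302 reached 1 FPKM in 3 or more of the 9 libraries and are called tested. FPKM, fragments per kilobase of model scaled to depth, allows for model length and library depth but not for differences in composition between libraries. The chromosome was selected on the measured differences between OE2 and the other lines, so those differences are described here and not tested.

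RNA was sequenced from roots of 7-day-old plants of the cultivar Dongjin, kept in soil with 10 h of light and 14 h of dark. WT is the wild type, dgk1 a line whose label gives a diacylglycerol kinase knockout, and OE2 one whose label gives overexpression of that gene, each with 3 libraries described as biological repetitions. The question behind the design is how this lipid kinase acts in roots. The sources used here do not give the number of plants per library, the promoter behind OE2, or whether each line is 1 clone or insertion. The p-values thus measure only the spread between these libraries.

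Rice chromosome 11 is known for its many NB-ARC genes, which encode intracellular immune receptors whose nucleotide-binding switch is coupled to leucine-rich repeats that sense pathogen molecules. Such genes, and others used in defence such as chitinases, stand in tandem arrays that arise by duplication of neighbours. The tips of the short arms of chromosomes 11 and 12 share a recently duplicated segment, so some models near the start of chromosome 11 have close copies on chromosome 12. Copies that are nearly alike can exchange fragments when reads are counted, which makes the level of a single copy uncertain.

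The libraries held 8908397 to 12459460 fragments, of which 4.69% to 5.02% fell on chromosome 11. The targeted gene OS04G0634700, on chromosome 4, was listed at 0 in all libraries, and numbered model 25546 with the same span was at 0.896, 0.738 and 0.487 FPKM in WT, 7.24, 5.596 and 9.16 in dgk1 and 0.521, 0.625 and 0.571 in OE2. Its level was highest in the libraries labelled as the knockout and not raised in those labelled as the overexpressor. At this model the levels thus do not follow either label. That rests on a single numbered model, and how fragments were assigned between it and OS04G0634700 was not tested. WT, dgk1 and OE2 stand below only for libraries so labelled. Of 13 root marker models 8 were tested, and the list summed to 573 to 633 FPKM in WT, 426 to 523 in dgk1 and 509 to 592 in OE2. Of 40 green tissue marker models 19 were tested, with sums of 230.0 to 348, 165 to 218 and 237 to 339 FPKM. In bulk RNA, fewer cells of a type and less RNA per cell cannot be told apart.

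A tested model is said to have parted when all 3 OE2 values lay above, or all below, the 6 WT and dgk1 values and the means differed by at least 1 on the log2(FPKM + 1) scale. For parted models, any statement below that OE2 lay apart from the other libraries repeats this definition and adds no support. Chromosome 11 had 186 parted models of 1302 tested (14.3%), with OE2 higher at 113 and lower at 73. That balance rests on the filter together with all 3 OE2 libraries, and without any 1 of them more models were lower than higher. Without OE2 replicate 1, 2 or 3 there were 48, 48 and 44 higher and 75, 81 and 75 lower, whereas with the same 1302 models tested there were 122, 122 and 118 higher and 75, 81 and 75 lower. Over all tested models of the genome 4.54% had parted, with 2.45% higher and 2.09% lower. The shares were 10.7% on chromosome 12, 8.86% on chromosome 6 and 3.94% over all chromosomes but 11. Since these OE2 differences were the reason the chromosome was chosen, the counts are a description and nothing is read from the gap to the background. The median log2 difference over all tested models of the chromosome was 0.01, as it was genome-wide.

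Most parted models were near all or nothing. In 43 every OE2 library was listed at 0, and in 39 all 6 WT and dgk1 libraries were. In 74 no WT or dgk1 library reached 1 FPKM and in 59 no OE2 library did, so 133 of the 186 passed the filter through one side alone, which favours a difference. The other 53 had at least 1 FPKM in some library on both sides. Annotated models made up 91 of the 186, numbered models 75 and noncoding models 20, and 48 had a description that names a function. A neighbouring tested model overlapped the span of 55, and for 14 that neighbour had parted the opposite way. The sources used here do not say whether counting used strand, so overlapping models cannot be told apart.

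**Figure D1:**
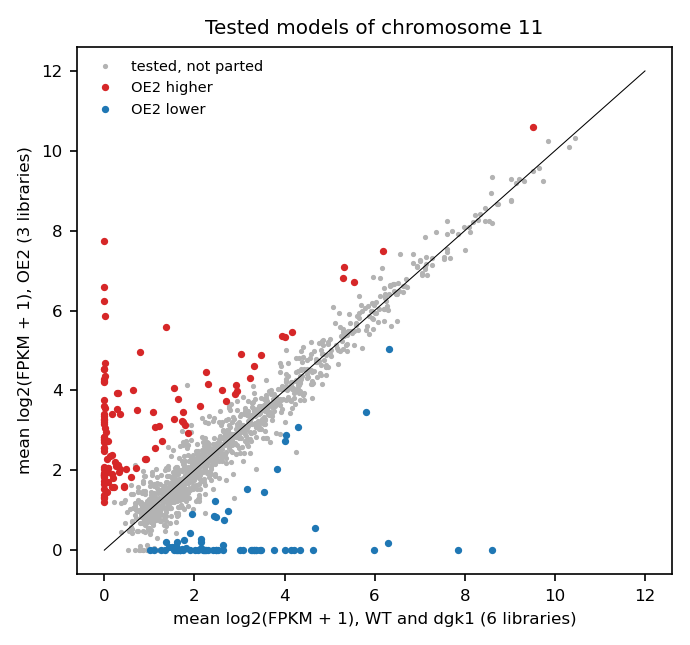
Mean log2(FPKM + 1) of the 1302 tested models of chromosome 11 over the 6 WT and dgk1 libraries (horizontal) and over the 3 OE2 libraries (vertical), with the line of equal levels. The 113 models with OE2 higher (red) gather along the left edge and the 73 with OE2 lower (blue) along the bottom, where 1 side is near 0.

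The values of single models show how complete the differences were. Model 9809, with no described function, was at 360.5, 459 and 427 FPKM in WT and 381, 406 and 309 in dgk1, and listed at 0 in all OE2 libraries (25019808 to 25020728). OS11G0114300 was at 198, 224 and 143 FPKM in WT and 273, 243 and 344 in dgk1, and listed at 0 in all OE2 libraries (651483 to 652048). OS11G0596250 was listed at 0 in every WT and dgk1 library and lay at 217, 193 and 233 FPKM in OE2 (22699434 to 22700917). In all 3 models OE2 held none or all of the signal, and in OS11G0114300 dgk1 also lay above WT, which the limma test described below did not call. OS11G0114300 lies near the start of the chromosome, and a shift of its fragments to a copy on chromosome 12 was not tested. These models, and others below that carry no described function, were chosen after their values were seen.

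The parted models were spread unevenly. In 100 kb steps, 272 of 291 steps held a tested model. A step was called differing with at least 2 parted models making up at least 25% of its tested models, and 40 steps qualified. Differing steps with at most 2 others between them were joined, which gave 10 stretches of at least 2 differing steps, 5065 kb in all. The stretches held 124 of 273 tested models as parted (45.4%), against 62 of 1029 (6.03%) outside, a contrast that their definition fixes.

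Along the chromosome the stretches lay toward its far end. From 1180, the start of the first model, up to the second stretch, 33 of 780 tested models had parted (4.23%). From the start of the second stretch at 17829546 to the end of the last model at 29020078, a length of 11.2 Mb, 153 of 522 had (29.3%), and 36 of the 40 differing steps lay there. Between the stretches of that region 36 of 260 tested models had parted (13.8%). The longest run with no parted model went from 10976585 to 16987479, 6.01 Mb with 172 tested models.

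**Figure D2:**
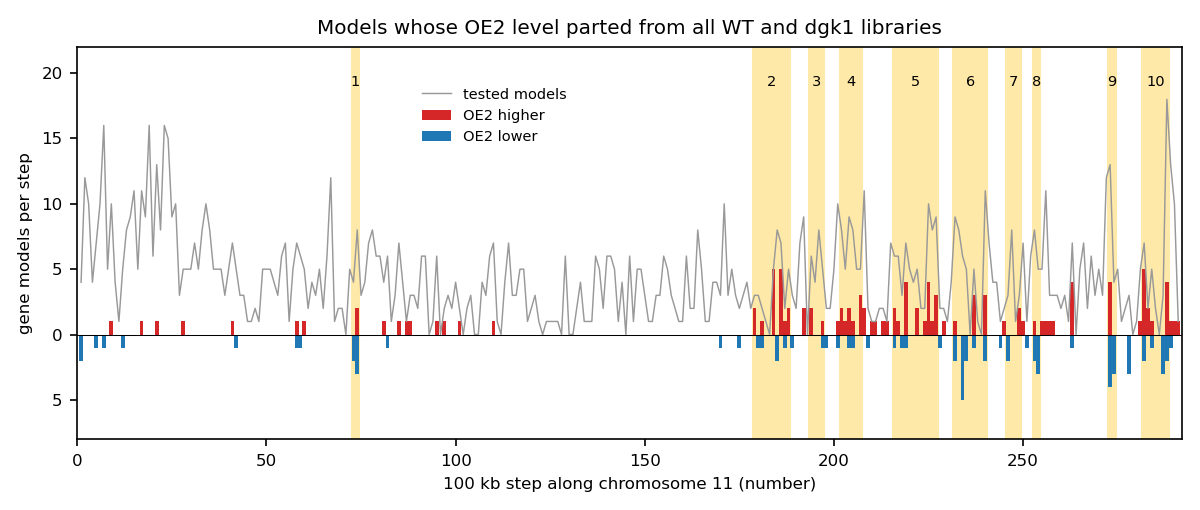
Tested models (grey line) and parted models (bars up, OE2 higher; bars down, OE2 lower) in each of 291 steps of 100 kb along chromosome 11, with the 10 stretches shaded and numbered. Only stretch 1 lies in the first part of the chromosome, and few parted models lie between it and stretch 2.

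The counts rest on all OE2 libraries being present. Without OE2 replicate 1, 2 or 3 the parted models numbered 123, 129 and 119, the stretches 6, 8 and 6, and their length came to 1016, 1264 and 1193 kb. A model seen in OE2 alone then has only 2 libraries and fails the filter. With the same 1302 models kept, the counts were 197, 203 and 193, with 9, 10 and 9 stretches of 5320, 5080 and 4873 kb. WT replicate 1 and OE2 replicate 2 stood apart from the other 7 on the third principal component, and without both there were 131 parted models, 48 higher and 83 lower, and 8 stretches of 1323 kb. Over 29 alternatives, stretch 2 was overlapped by a stretch in all 29, stretches 6 and 10 in 28, stretch 4 in 26, stretches 8 and 9 in 25, stretch 5 in 23, stretches 1 and 7 in 19 and stretch 3 in 18. An overlap need not keep the ends. Without OE2 replicate 1 or 3 the stretch that overlapped stretch 2 ran only from 18493040 to 18753276. With steps of 200 kb a single stretch from 17829546 to 26279626 overlapped stretches 2 to 8. Stretches 3, 5 and 7 were lost without any 1 of the OE2 libraries, but not with the same models tested.

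Stretch 1, the only one outside that region, ran from 7200063 to 7392448 and held 7 parted of 11 tested models, 2 higher and 5 lower. It was lost in 10 of the 29 alternatives, among them those without WT replicate 2 and, also with the same models tested, without OE2 replicate 1 or 3. Model 8666, described by a dimerisation domain, was at 5.42, 7.51 and 7.402 FPKM in WT, 8.96, 7.37 and 8.47 in dgk1 and 0.0163, 0 and 0 in OE2. The NB-ARC gene OS11G0237600 was at 4.55, 4.38 and 3.08 FPKM in WT and 3.23, 3.34 and 4.25 in dgk1, and listed at 0 in all OE2 libraries. Its neighbour OS11G0237700, with no described function, was at 7.61, 10.8 and 12.3 FPKM in WT and 11.7, 7.43 and 10.9 in dgk1, and listed at 0 in all OE2 libraries. The 3 models thus had little or no signal in OE2 alone, with no overlap between OE2 and the other lines. Model 8672, with a ribonuclease III domain, spans both annotated genes and was at 0.534, 0.513 and 0.278 FPKM in WT, 0.362, 0.1404 and 0.312 in dgk1 and 2.302, 1.68 and 1.95 in OE2, the opposite direction. A second NB-ARC copy, OS11G0237900, was at 0.617, 1.08 and 0.925 FPKM in WT, 0.781, 1.104 and 1.21 in dgk1 and 0.183, 0.0777 and 0 in OE2. Each OE2 value lay below the others, but short of the threshold of 1. The nitrate transporter OS11G0235200, whose span ends 1.58 kb before the stretch, was at 13.6, 10.3 and 11.95 FPKM in WT, 9.59, 6.501 and 5.91 in dgk1 and 7.02, 7.69 and 7.67 in OE2, and OE2 overlapped dgk1. On the far side, model 8675 lay 0.799 kb beyond the last parted model, OS11G0238400.

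Stretch 2, from 17829546 to 18753276, had 21 parted of 34 tested models, 16 higher and 5 lower. Near its middle 5 neighbours, all the tested models of the step from 18300001 to 18400000, were near absent from WT and dgk1. OS11G0513000 was at 0, 0 and 0 FPKM in WT, 0, 0 and 0.0784 in dgk1 and 8.17, 6.85 and 6.85 in OE2. Model 9292 was at 0.0193, 0.0159 and 0.0121 FPKM in WT, 0, 0.0152 and 0 in dgk1 and 11.2, 10.6 and 10.8 in OE2. OS11G0513900 was at 0, 0 and 0.0193 FPKM in WT, 0, 0 and 0 in dgk1 and 22.2, 22.9 and 30.6 in OE2. All these were present in OE2 and at or close to 0 in the other 6 libraries, as were OS11G0513700, at 8.86, 9.804 and 15.7 FPKM in OE2, and the noncoding EPlOSAG00000020441, at 28.8, 16.9 and 22.98 FPKM. Next to them the direction turned. Model 9303 was at 5.102, 5.32 and 3.48 FPKM in WT and 6.07, 6.37 and 5.45 in dgk1, and listed at 0 in all OE2 libraries. Model 9283, upstream, was at 53.5, 60.5 and 68.8 FPKM in WT and 63.7, 71.1 and 58.3 in dgk1, and listed at 0 in all OE2 libraries.

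Among the members of stretch 2 with a named function, OS11G0521500, an acyl carrier protein of the kind that holds growing fatty acid chains, was at 40.5, 67.5 and 57.5 FPKM in WT, 43.99, 52.3 and 24.5 in dgk1 and 121, 74.1 and 123 in OE2 (log2 difference 1.17). OE2 lay above the other libraries, though OE2 replicate 2 exceeded the highest WT library by little. OS11G0506800, with a BAG domain as in co-chaperones that bind heat shock protein 70, was at 1.84, 4.02 and 3.94 FPKM in WT, 2.22, 1.83 and 1.29 in dgk1 and 10.7, 7.16 and 13.01 in OE2. The sulfotransferase OS11G0505300, of enzymes that add sulfate groups, was at 25.3, 26.7 and 15.9 FPKM in WT, 8.53, 11.5 and 4.88 in dgk1 and 3.35, 2.57 and 3.44 in OE2. Here the 3 lines formed an order, with dgk1 between WT and OE2, though limma did not call dgk1 against WT (adjusted p = 0.108). Its tandem copy OS11G0503900 was at 3.18, 2.32 and 1.58 FPKM in WT, 1.84, 0.961 and 0.855 in dgk1 and 7.69, 2.74 and 5.75 in OE2, and 2 of its 3 OE2 libraries lay above all others, so the copies leaned opposite ways. OS11G0518900, with no described function, was at 0.273, 2.61 and 0.4897 FPKM in WT, 0.508, 0.0807 and 1.39 in dgk1 and 26.4, 31.6 and 33.7 in OE2.

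Stretches 3 and 4 were sparser, with 4 of 18 and 11 of 38 tested models parted. Stretch 3 ran from 19362542 to 19658769. OS11G0532200 at its start was listed at 0 in every WT and dgk1 library and lay at 5.15, 7.105 and 6.14 FPKM in OE2. Model 9386, with the C-terminal domain of citrate synthase, an enzyme of the citric acid cycle, was at 1.64, 1.64 and 1.57 FPKM in WT, 2.52, 1.71 and 2.15 in dgk1 and 0.116, 0 and 0.0791 in OE2. The xyloglucan endotransglucosylase OS11G0539200 just beyond was at 52.2, 17.1 and 12.1 FPKM in WT, 20.5, 12.7 and 25.9 in dgk1 and 6.72, 39.7 and 7.004 in OE2, with WT replicate 1 and OE2 replicate 2 the highest of all. Those are also the 2 libraries that lay above 0 on the third principal component. Without both, stretch 3 was lost and stretch 4 was overlapped by a stretch.

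Stretch 4, from 20136228 to 20647893, had 9 models higher and 2 lower. Model 9476, with no described function, was at 83.3, 71.2 and 83.01 FPKM in WT, 73.6, 73.3 and 81.6 in dgk1 and 0.0646, 0.137 and 0.199 in OE2, near absent from OE2 alone. The purple acid phosphatase OS11G0549615, of a family that frees phosphate from organic compounds, was at 9.44, 8.43 and 3.66 FPKM in WT, 4.804, 3.797 and 3.32 in dgk1 and 0, 0 and 0.3203 in OE2. Its neighbour and tandem copy OS11G0549620 was at 4.69, 1.504 and 1.47 FPKM in WT, 2.297, 1.58 and 1.53 in dgk1 and 1.09, 0.984 and 0.636 in OE2. OE2 was lowest in both, in the second by less than the threshold. OS11G0546100, described as a transmembrane receptor family protein, was at 4.72, 2.36 and 3.35 FPKM in WT, 3.02, 3.43 and 3.43 in dgk1 and 10.1, 12.1 and 11.4 in OE2. OS11G0549695, of the Maf family, was at 2.46, 2.29 and 2.88 FPKM in WT, 1.81, 2.53 and 2.105 in dgk1 and 9.55, 7.07 and 8.43 in OE2. Both lay clearly above the other 6 libraries in OE2. At the far end, model 9505, with an NB-ARC domain, was at 0.0309, 0.153 and 0.329 FPKM in WT, 0.199, 0.06103 and 0.163 in dgk1 and 2.61, 1.84 and 1.66 in OE2.

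Stretch 5 was the longest, from 21517623 to 22700917, with 21 parted of 65 tested models, 18 of them higher. In 11 of the 18 all 6 WT and dgk1 libraries were listed at 0. In a run of 4 models from 21872063 they were at or near 0. OS11G0579200, the first of the run, was listed at 0 in every WT and dgk1 library and lay at 17.1, 20.7 and 14.8 FPKM in OE2. OS11G0579600, its last, was at 0, 0.439 and 0.166 FPKM in WT, 0.1204, 0 and 0.0623 in dgk1 and 9.74, 9.05 and 9.99 in OE2. Model 9589 was listed at 0 in every WT and dgk1 library and lay at 19.9, 25.6 and 21.3 FPKM in OE2. All OE2 values of these 3 lay far above the other 6. The first parted model, OS11G0573100, had the opposite direction and was at 21.1, 40.4 and 18.8 FPKM in WT and 18.4, 18.9 and 9.29 in dgk1, and listed at 0 in all OE2 libraries. The last was OS11G0596250, given above. The next tested model, OS11G0597601, lay 98.4 kb further on.

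Stretch 5 also held immune and defence genes. In the NB-ARC group from 22310924 to 22540070, 3 of 9 models were tested. Model 9615 was listed at 0 in every WT and dgk1 library and lay at 4.82, 5.41 and 4.55 FPKM in OE2. Model 9620 was at 4.02, 4.49 and 2.59 FPKM in WT, 4.45, 4.35 and 3.85 in dgk1 and 16.3, 15.6 and 19.2 in OE2. Model 9610 was at 1.98, 1.36 and 1.304 FPKM in WT, 1.47, 1.05 and 1.23 in dgk1 and 1.83, 2.25 and 1.51 in OE2. The first was seen in OE2 alone, the second lay above all other libraries, and the third overlapped between the lines. The group summed to 5.92 ± 1.26 FPKM in WT, 6.07 ± 0.537 in dgk1 and 24.9 ± 1.27 in OE2 (SD, n = 3). OS11G0592000, a barwin gene of the type found in pathogenesis-related proteins, was at 14.8, 11.3 and 15.9 FPKM in WT, 20.8, 10.6 and 19.5 in dgk1 and 31.8, 43.9 and 44.1 in OE2. Its tandem copy OS11G0592100, much the higher of the pair, was at 154, 109 and 128 FPKM in WT, 198, 208 and 220.3 in dgk1 and 255, 261 and 234 in OE2, with WT lowest and OE2 highest but within the threshold. Limma did not call OS11G0592100 in dgk1 against WT (adjusted p = 0.0635). OS11G0593700, with an F-box domain as in the substrate-binding part of ubiquitin ligases, was at 3.73, 2.37 and 1.901 FPKM in WT, 2.18, 1.18 and 3.06 in dgk1 and 8.91, 8.40 and 7.94 in OE2.

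Stretch 6, from 23142165 to 23949310, was mixed, with 7 of its 19 parted models higher and 12 lower, among 40 tested. In the step from 23300001 to 23400000, 5 of 6 tested models had parted and all 5 were listed at 0 in OE2. OS11G0605300 was at 9.297, 9.14 and 10.8 FPKM in WT and 10.1, 9.03 and 12.4 in dgk1, and listed at 0 in all OE2 libraries. OS11G0605800 was at 4.401, 4.25 and 4.17 FPKM in WT and 6.38, 2.88 and 2.45 in dgk1, and listed at 0 in all OE2 libraries. OS11G0610700, some way on, was at 0.284, 0.585 and 0.133 FPKM in WT, 0, 0.224 and 0.299 in dgk1 and 12.7, 17.8 and 13.1 in OE2, the opposite pattern. Toward the end of the stretch the directions alternated over neighbours. OS11G0615600, described only as expressed, was at 19.1, 19.3 and 14.03 FPKM in WT and 14.99, 11.7 and 12.9 in dgk1, and listed at 0 in all OE2 libraries. OS11G0615700, a proteasome subunit alpha type-5 of the core that degrades proteins, was at 6.28, 6.45 and 10.03 FPKM in WT, 7.801, 6.79 and 6.25 in dgk1 and 27.3, 32.1 and 27.8 in OE2 (log2 difference 1.88). OE2 stood apart from the other 6 libraries in both. OS11G0615900, the last parted model, was listed at 0 in 5 of the 6 WT and dgk1 libraries and lay at 6.13, 5.06 and 5.505 FPKM in OE2. Model 9698, with ribosomal protein S4 domains, was at 4.22, 4.12 and 5.19 FPKM in WT, 3.74, 4.35 and 5.47 in dgk1 and 1.16, 1.65 and 1.25 in OE2. It overlaps OS11G0602400, which was at 19.9, 13.9 and 16.1 FPKM in WT, 12.3, 13.9 and 15.7 in dgk1 and 6.15, 4.27 and 6.61 in OE2, so these values may share fragments.

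Stretches 7 and 8 were short. Stretch 7 ran from 24565223 to 24823265 with 4 of 13 tested models parted, 2 each way. Its first models, 9789 and 9790, were listed at 0 in all OE2 libraries and lay at 3.58, 3.11 and 4.71 and 10.9, 7.503 and 9.83 FPKM in WT. Both fall within the span of OS11G0626700, the nearest model that had not parted, which was at 0.659, 0.629 and 1.21 FPKM in WT, 0.777, 1.45 and 1.07 in dgk1 and 0, 0.0328 and 0 in OE2. Stretch 8, from 25237345 to 25325479, had 6 of 10 parted, and 5 of them were listed at 0 in OE2. OS11G0639300 was at 8.22, 10.4 and 7.56 FPKM in WT and 9.74, 7.48 and 11.3 in dgk1, and listed at 0 in all OE2 libraries. OS11G0639400 was at 7.47, 10.9 and 8.44 FPKM in WT and 10.9, 7.65 and 7.81 in dgk1, and listed at 0 in all OE2 libraries. In the leucine-rich repeat group that closes the stretch, OS11G0640300 was at 8.72, 9.12 and 11.9 FPKM in WT and 9.53, 8.08 and 8.96 in dgk1, and listed at 0 in all OE2 libraries. OS11G0640000 was at 1.47, 1.21 and 1.22 FPKM in WT and 0.719, 0.605 and 1.08 in dgk1, and listed at 0 in all OE2 libraries. The third tested copy, OS11G0640800, was at 2.81, 2.83 and 3.42 FPKM in WT, 3.18, 2.78 and 3.06 in dgk1 and 2.19, 1.92 and 2.02 in OE2, lower in OE2 by a small margin. Summed over the group, OE2 had 2.04 ± 0.135 FPKM against 14.3 ± 1.97 in WT and 12.7 ± 1.01 in dgk1.

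Stretch 9, from 27215054 to 27363281, was built round an NB-ARC array and had 11 parted of 16 tested models, 4 higher and 7 lower. Of 7 NB-ARC models 6 were tested and 3 were lower in OE2. Model 10043 was at 5.83, 5.94 and 6.38 FPKM in WT and 8.76, 9.67 and 6.399 in dgk1, and listed at 0 in all OE2 libraries. Model 10021, which also has leucine-rich repeats, was at 1.28, 0.955 and 1.15 FPKM in WT, 2.46, 2.299 and 2.44 in dgk1 and 0.0559, 0.0296 and 0.0573 in OE2. Model 10050 was at 0.953, 3.38 and 2.44 FPKM in WT, 5.51, 6.295 and 4.22 in dgk1 and 0.1805, 0.191 and 0.0794 in OE2. In all 3 OE2 was at or near 0, and in models 10021 and 10050 every dgk1 value also lay above every WT value. Limma called neither of models 10021 and 10050 in dgk1 against WT (adjusted p = 0.105 and 0.216). The other 3 tested models went otherwise. Model 10024 was at 1.81, 0.873 and 1.23 FPKM in WT, 1.09, 0.876 and 0.834 in dgk1 and 2.76, 2.66 and 2.55 in OE2. Model 10015 was at 3.72, 4.698 and 4.78 FPKM in WT, 3.53, 4.14 and 3.15 in dgk1 and 3.01, 3.44 and 1.53 in OE2. OS11G0676800 was at 1.97, 4.08 and 2.95 FPKM in WT, 5.18, 4.76 and 6.202 in dgk1 and 4.10, 4.39 and 3.61 in OE2. Only the first had OE2 above all other libraries, and none of the 3 parted. The array summed to 18.1 ± 2.29 FPKM in WT, 25.9 ± 2.45 in dgk1 and 9.55 ± 1.53 in OE2. Model 10021 lies within the span of model 10015 on the same strand, so they may share fragments and need not be separate copies.

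**Figure D3:**
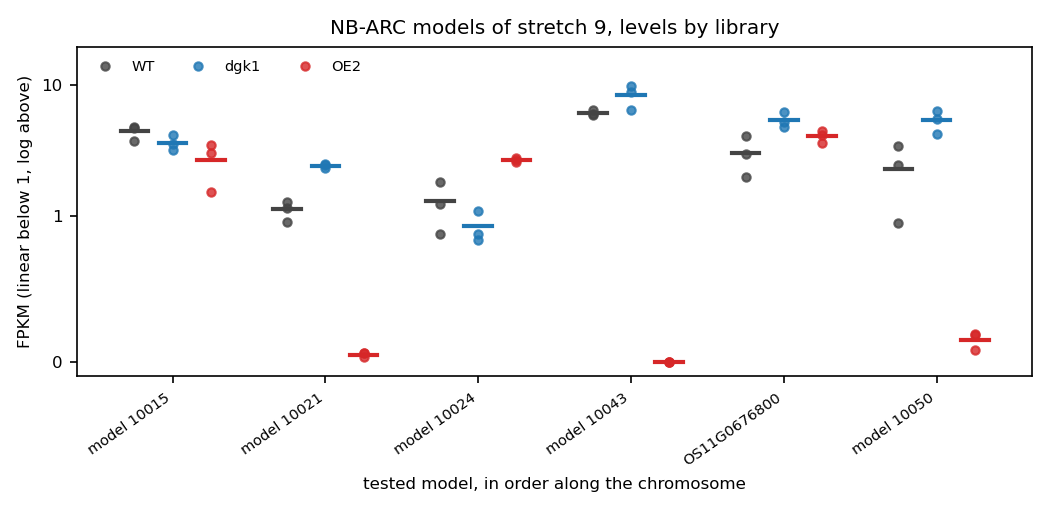
FPKM of the 6 tested NB-ARC models of stretch 9 in each library (points) with the mean of each group (bars), in order along the chromosome; the axis is linear below 1 and logarithmic above. Models 10021, 10043 and 10050 are at or near 0 in OE2, while models 10015, 10024 and OS11G0676800 have signal in OE2.

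Other models of stretch 9 have long, nested spans. Model 10020, which parted higher in OE2, overlaps 10 tested models. Models 10021, 10027, 10028 and 10043 among them parted lower, so these values may share fragments. Model 10027 was at 12.9, 11.8 and 18.5 FPKM in WT and 16.9, 22.6 and 19.96 in dgk1, and listed at 0 in all OE2 libraries. Model 10028, with the same start, was at 0.437, 1.95 and 1.47 FPKM in WT and 2.904, 1.66 and 1.53 in dgk1, and listed at 0 in all OE2 libraries. Model 10054, at the far end, was at 18.2, 14.4 and 12.2 FPKM in WT and 36.99, 37.2 and 39.1 in dgk1, and listed at 0 in all OE2 libraries. OS11G0673900 was at 0.642, 0.794 and 0.258 FPKM in WT, 2.89, 2.82 and 1.93 in dgk1 and 9.17, 7.19 and 6.63 in OE2, so that the lines were ordered WT, dgk1, OE2 with no overlap. In models 10027, 10028 and 10054 all signal was in WT and dgk1.

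Stretch 10, from 28103699 to 28760003, had the highest share of parted models, 20 of 28, with 12 higher and 8 lower. Its start held protein kinase models. Model 10109 was at 41.1, 31.7 and 62.2 FPKM in WT, 36.6, 38.04 and 32.02 in dgk1 and 146, 131 and 130.5 in OE2 (log2 difference 1.76). Model 10140, which also has leucine-rich repeats as in receptor kinases, was listed at 0 in every WT and dgk1 library and lay at 7.34, 9.74 and 8.56 FPKM in OE2. Model 10178 was listed at 0 in every WT and dgk1 library and lay at 2.502, 3.46 and 3.75 FPKM in OE2. All 3 tested kinase models of this group lay higher in OE2, and their sum was 45.0 ± 15.6 FPKM in WT, 35.6 ± 3.14 in dgk1 and 148 ± 7.31 in OE2. Between them, model 10122 was listed at 0 in every WT and dgk1 library and lay at 96.3, 102 and 88.4 FPKM in OE2. OS11G0694100 was at 15.95, 14.9 and 18.5 FPKM in WT and 9.44, 10.6 and 8.87 in dgk1, and listed at 0 in all OE2 libraries. Model 10127 overlaps kinase model 10140 but not kinase models 10109 and 10178. It was at 12.9, 9.31 and 14.3 FPKM in WT, 8.66, 10.5 and 9.66 in dgk1 and 2.63, 1.24 and 1.499 in OE2, opposite in direction to the kinase models. In the step from 28600001 to 28700000 all 3 tested models were listed at 0 in OE2.

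The array of glycoside hydrolase family 18 genes at the end of stretch 10 was the only tandem group with copies parted in both directions. This family holds the class III chitinases, which cut the chitin of fungal walls, and xylanase inhibitors, which block microbial enzymes that attack plant walls. Of its 15 models from 28722579 to 28761600, 9 were tested. The chitinase OS11G0701200 was at 61.2, 71.7 and 45.4 FPKM in WT, 65.2, 47.5 and 46.2 in dgk1 and 8.71, 8.63 and 13.3 in OE2 (log2 difference -2.35). Its neighbour OS11G0701400 was at 6.29, 10.5 and 6.597 FPKM in WT, 9.84, 11.4 and 5.02 in dgk1 and 1.52, 2.21 and 2.05 in OE2 (log2 difference -1.62). Both lay lower in OE2 than in every other library. The next copy, OS11G0701500, was at 62.6, 87.9 and 94.6 FPKM in WT, 73.1, 86.1 and 40.3 in dgk1 and 180.3, 167 and 189 in OE2 (log2 difference 1.31). The chitinase III gene OS11G0701900 was at 0.297, 0 and 0.124 FPKM in WT, 0.335, 0.0781 and 0.278 in dgk1 and 4.41, 3.18 and 3.35 in OE2. OS11G0702100 was at 45.8, 54.6 and 27.9 FPKM in WT, 35.8, 38.3 and 32.7 in dgk1 and 134, 82.3 and 124 in OE2 (log2 difference 1.51). These 3 lay higher in OE2 without overlap, so that adjacent copies went opposite ways. OS11G0701600, which lies among them and has no described function, was at 5.39, 7.16 and 5.43 FPKM in WT, 7.31, 5.91 and 2.95 in dgk1 and 12.8, 10.5 and 13.7 in OE2 (log2 difference 1.03).

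The other 4 tested copies had not parted. OS11G0701000 was at 4.02, 4.97 and 4.42 FPKM in WT, 4.97, 5.51 and 2.94 in dgk1 and 8.73, 6.35 and 12.9 in OE2. The xylanase inhibitor gene OS11G0701100 was at 17.6, 19.99 and 12.8 FPKM in WT, 17.2, 17.4 and 10.2 in dgk1 and 34.9, 22.9 and 38.7 in OE2. Both were above all other libraries in OE2 but by less than the threshold. The xylanase inhibitor gene OS11G0701800 was at 29.7, 38.2 and 33.4 FPKM in WT, 22.98, 29.7 and 15.3 in dgk1 and 30.8, 27.8 and 36.03 in OE2. OS11G0702200, just past the stretch, was at 0.964, 1.67 and 0.964 FPKM in WT, 0.392, 0.837 and 0.339 in dgk1 and 4.99, 0.364 and 3.002 in OE2. In these the lines overlapped, and OE2 replicate 2 set OS11G0702200 within the range of the rest. Summed over the array, the level was 248 ± 35.9 FPKM in WT, 207 ± 46.5 in dgk1 and 384 ± 55.3 in OE2. Fragments shared between tandem copies could leave each one's level uncertain, and likeness between these copies was not measured.

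**Figure D4:**
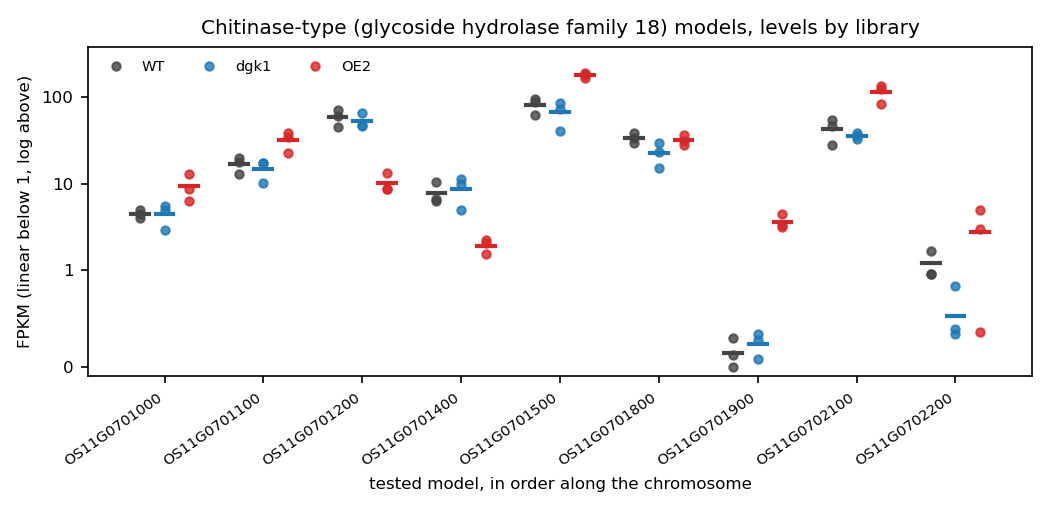
FPKM of the 9 tested glycoside hydrolase family 18 models in each library (points) with group means (bars), in order along the chromosome; the axis is linear below 1 and logarithmic above. OS11G0701200 and OS11G0701400 lie lower in OE2, and OS11G0701500, OS11G0701900 and OS11G0702100 higher.

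Outside the stretches, 4 single steps were differing, those starting at 1, 5700001, 26200001 and 27700001. In the first, OS11G0100100 was at 5.87, 5.53 and 5.14 FPKM in WT and 3.53, 4.03 and 2.56 in dgk1, and listed at 0 in all OE2 libraries. Model 7836, with the domain of an RNase P subunit, was at 11.1, 5.90 and 4.55 FPKM in WT, 3.02, 2.62 and 2.65 in dgk1 and 1.08, 0.6197 and 0.756 in OE2. This is the chromosome tip duplicated on chromosome 12, and a shift of fragments between copies was not tested. The step at 5700001 held alcohol dehydrogenase 2, OS11G0210500, the fermentation enzyme that turns acetaldehyde to ethanol, which was at 699.7, 614 and 462 FPKM in WT, 904, 854 and 979 in dgk1 and 1323, 2182 and 1316 in OE2. It was the most abundant parted model, and OE2 lay above all 6 others. Its neighbour, model 8527, a zinc-binding dehydrogenase of the same domain type, was at 4.75, 3.08 and 2.76 FPKM in WT and 3.15, 2.801 and 2.997 in dgk1, and listed at 0 in all OE2 libraries. In the step at 27700001 the NB-ARC gene OS11G0684700 was at 16.6, 15.4 and 13.9 FPKM in WT, 14.8, 15.5 and 15.4 in dgk1 and 6.82, 7.29 and 5.12 in OE2. Model 10082 there was at 5.56, 4.23 and 4.15 FPKM in WT and 5.19, 4.85 and 4.87 in dgk1, and listed at 0 in all OE2 libraries. All 3 tested models of that step lay lower in OE2. In that at 26200001 5 of 7 tested models had parted, and OS11G0656000, a putative glutaredoxin of thiol redox control, was at 0, 0 and 0 FPKM in WT, 0, 0 and 0.336 in dgk1 and 2.14, 2.71 and 3.95 in OE2.

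Single models with a named function also parted elsewhere on the chromosome. Metallothionein-like protein 1A, OS11G0704500, of small proteins that bind metals, was at 30.1, 17.6 and 21.5 FPKM in WT, 28.6, 26.7 and 25.5 in dgk1 and 0.185, 0.392 and 0.9499 in OE2 (log2 difference -4.12). OS11G0562100, of the terpene cyclase/mutase family that closes triterpene rings, was at 0.736, 0.722 and 0.5696 FPKM in WT, 0.357, 0.7195 and 0.788 in dgk1 and 13.8, 7.22 and 11.04 in OE2 (log2 difference 2.79). Neither overlapped between OE2 and the other lines, as the definition of parted requires. The dirigent gene OS11G0214400, of proteins that steer the coupling of phenolic radicals, was listed at 0 in every WT and dgk1 library and lay at 9.897, 3.74 and 6.04 FPKM in OE2. Its tested tandem copy OS11G0215100 was at 3.11, 2.03 and 1.22 FPKM in WT, 1.14, 1.33 and 1.46 in dgk1 and 1.74, 1.84 and 0.9496 in OE2, with overlap between the lines. OS11G0643100, tryptamine benzoyltransferase 2, was at 12.5, 9.37 and 10.6 FPKM in WT, 9.24, 8.58 and 5.04 in dgk1 and 16.2, 28.4 and 28.5 in OE2. Its copy OS11G0642400 was at 6.19, 2.102 and 1.09 FPKM in WT, 1.73, 3.22 and 1.74 in dgk1 and 4.03, 5.57 and 7.54 in OE2, where the lines overlapped. Model 8046, with the NAF domain by which kinases bind calcium sensors, was at 0.171, 0 and 0 FPKM in WT, 0.0773, 0.0450 and 0.0801 in dgk1 and 4.32, 2.58 and 2.77 in OE2. Model 8827, with no described function, had 1 trace among the 6 other libraries and lay at 50.8, 63.8 and 57.3 FPKM in OE2.

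**Figure D5:**
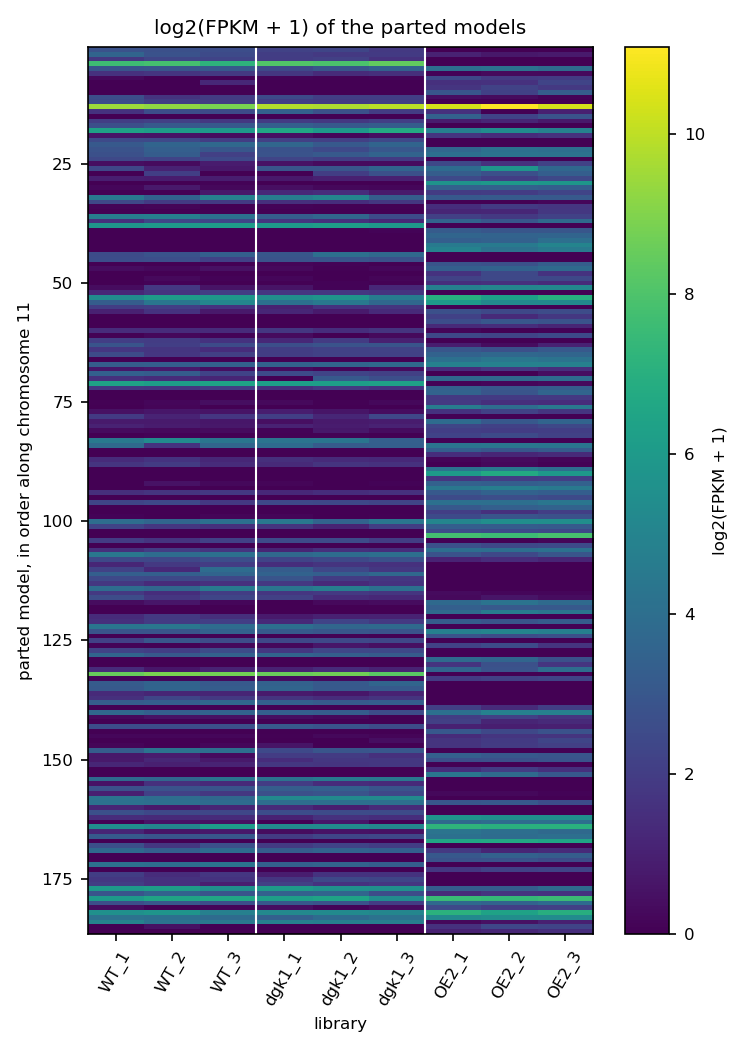
Colour gives log2(FPKM + 1) of the 186 parted models of chromosome 11 (rows, in order along the chromosome) in each of the 9 libraries (columns; white lines part the groups). Within a row the 6 WT and dgk1 libraries are mostly alike, and many rows are dark on 1 side, where 43 models were listed at 0 in OE2 and 39 in the other lines.

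In all, 14 tandem groups, runs of models with the same function at most 100 kb apart, had at least 2 tested members and at least 1 parted. Besides the chitinase group with both directions, 6 had copies parted higher and 7 lower, and in 13 of the 14 at least 1 tested copy had not parted.

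By function, as the files describe it, 38 NB-ARC and disease resistance models were tested of 86 on the chromosome, with 4 higher and 6 lower. They were on both sides in nearly equal number, and their median log2 difference was 0.12. Of 22 leucine-rich repeat models 3 were higher and 4 lower, and of 36 models described as kinases 5 were higher and none lower. Of 10 chitinase and xylanase inhibitor models 3 were higher and 2 lower. The share parted was 26.3% of the NB-ARC models, 31.8% of the leucine-rich repeat models and 13.9% of the kinases, beside 14.3% of all tested models of the chromosome. None of 20 transcription factors, 13 transporters and channels, 8 proteases and inhibitors, 7 transposon-derived models or 6 glycosyltransferases had parted. Outside chromosome 11 these lists had, in that order, 1.82%, 2.16%, 1.91%, 26.3% and 2.04% parted. Lists were matched on descriptions, and a model can stand in more than 1.

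The threshold of 1 is not a gap in the data. In all, 321 tested models had OE2 apart from the 6 others, and 135 of them differed by less. Just inside were OS11G0238400 at 1.02, OS11G0640000 at -1.02 and OS11G0701600 at 1.03. Just outside were OS11G0582000 and the sodium/hydrogen exchanger OS11G0648000, both at 0.99, and the xylanase inhibitor gene OS11G0701100 at 0.98. OS11G0648000, of a family that moves sodium against protons, was at 42.6, 54.6 and 36.8 FPKM in WT, 22.4, 24.2 and 27.5 in dgk1 and 60.4, 77.3 and 63.5 in OE2, with dgk1 lowest and OE2 highest. Limma did not call it in dgk1 against WT. With limma, 237 models of the chromosome were called in OE2 against WT (18.2%; 6.96% of all tested models) and 224 in OE2 against dgk1 (17.2%; 6.36%). The comparisons share the OE2 libraries and were used in choosing the chromosome, and nothing is read from these counts. Without OE2 replicate 1, 2 or 3 they fell to 115, 119 and 109 against WT and to 107, 123 and 99 against dgk1. With the same models tested they were 203, 211 and 198, and 197, 213 and 191.

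The comparison of dgk1 with WT was not used to choose the chromosome, and few models of chromosome 11 were called in it. Limma called 15 of 1302 models (1.15%) at an adjusted p of 0.05, 10 higher and 5 lower in dgk1, beside 0.675% of all tested models (0.532% higher and 0.143% lower), and 157 had an unadjusted p under 0.05. Model 9157, listed at 0 in each WT library, rose to 3.47, 3.41 and 3.91 FPKM in dgk1 (limma adjusted p = 0.000461). It lies at 16035278 to 16037746, within the long run with no parted model, and was at 0, 0 and 0.104 FPKM in OE2. Model 9008 (12896649 to 12899185) went the other way, with 2.92, 3.14 and 2.303 FPKM in WT, and was listed at 0 in all dgk1 and all OE2 libraries (limma adjusted p = 0.00209). Neither has a described function. Model 9157 reached 1 FPKM only in dgk1 libraries and model 9008 only in WT libraries. OS11G0491600, OS11G0548600, OS11G0549300 and the noncoding EPlOSAG00000052448, given below, also reached 1 FPKM only in dgk1 libraries. All these passed the filter through that side alone, which favours a call, and all but model 9008 are among the higher calls.

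Model 9297, with the N-terminal domain of leucine-rich repeat proteins, fell from a mean of 5.89 ± 0.745 to 1.14 ± 0.414 FPKM (mean ± SD of 3 libraries; limma log2 change -1.70 ± 0.23, adjusted p = 0.0165), and stood at 6.06, 7.95 and 4.01 FPKM in OE2, where its values overlapped those of WT. It lies within stretch 2 (18434944 to 18438183), where it had not parted. Model 10054 of stretch 9 rose from a mean of 14.9 ± 3.05 to 37.8 ± 1.16 FPKM (limma log2 change 1.30 ± 0.15, adjusted p = 0.00571), while OE2 was listed at 0. OS11G0491600 rose from a mean of 0.0237 ± 0.0221 to 1.92 ± 0.321 FPKM (limma log2 change 1.504 ± 0.19, adjusted p = 0.0125), and model 9406 fell from a mean of 7.74 ± 1.09 to 2.91 ± 0.378 (limma log2 change -1.16 ± 0.15, adjusted p = 0.0131). The purple acid phosphatase OS11G0151700 rose from a mean of 5.69 ± 1.77 to 13.9 ± 1.703 FPKM (limma log2 change 1.19 ± 0.20, adjusted p = 0.046), and lay at 14.2, 15.7 and 19.7 FPKM in OE2. Its WT values did not overlap with those of either line.

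The other called models had low levels. OS11G0117500 rose from a mean of 0.593 ± 0.237 to 3.79 ± 1.52 FPKM (limma log2 change 1.55 ± 0.22, adjusted p = 0.0202), and OS11G0548600 from a mean of 0.0512 ± 0.0887 to 2.45 ± 0.983 (limma log2 change 1.68 ± 0.25, adjusted p = 0.0224). Model 8579 fell from a mean of 2.06 ± 0.866 to 0.0555 ± 0.0578 FPKM (limma log2 change -1.502 ± 0.22, adjusted p = 0.0214). OS11G0549300 (1.56, 1.105 and 2.04 FPKM in dgk1) and the noncoding EPlOSAG00000052448 (2.96, 1.15 and 2.04) were at or near 0 in WT, and the noncoding EPlOSAG00000043010 (4.59, 5.04 and 2.87 FPKM in WT) was near 0 in dgk1. Noncoding models of this length rest on few fragments.

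Stretch 9 held 3 of the called models. Besides model 10054, OS11G0673900 rose from a mean of 0.565 ± 0.276 to 2.55 ± 0.535 FPKM (limma log2 change 1.19 ± 0.20, adjusted p = 0.0405), and model 10018, beside it, from a mean of 0.2497 ± 0.125 to 1.86 ± 0.6805 (limma log2 change 1.17 ± 0.19, adjusted p = 0.0385). OS11G0673900 was called in 3 of 20 settings, the reported one included (limma adjusted p up to 0.171) and model 10018 in 4 of 19 (up to 0.157). Of the 15 called models 2, OS11G0673900 and model 10054, were among the 186 parted, a share of 13.3% beside 14.3% of all tested models. In stretches lay 7 of the 15 (46.7%), beside 273 of all 1302 tested models (21.0%), a difference that was not tested. Of the called functions, none was an NB-ARC gene, 1 was a leucine-rich repeat model and 1 a phosphatase.

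These calls were unsteady, and the root and green tissue marker sums of dgk1, given above, lay below those of WT without overlap; their part in the calls was not tested. Without dgk1 replicate 1, 2 or 3 limma called 5, 1 and 1 models, with 2, 0 and 0 of them higher and 3, 1 and 1 lower, and without WT replicate 1, 2 or 3 it called 10, 4 and 4. Without OE2 replicate 1 or 3 it called 9, and 9 without WT replicate 1 and OE2 replicate 2 together. Some losses reflect the filter. Model 9157, which reached 1 FPKM only in dgk1, fails the filter without a dgk1 library and has no value there. The same holds for model 9008 without a WT library. A fit with the same models tested was made only for OE2 libraries left out. Model 9157 was called in all 16 settings that gave it a value, the reported one included (limma adjusted p 8.33e-05 to 0.0280), model 9008 in 14 of 15 (up to 0.0701) and model 10054 in 18 of 20 (up to 0.0590). OS11G0151700 was called in 4 of 20 (up to 0.184).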

How the data were processed

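The deposited values are in FPKM. No header or label names the unit, which was read from the values: FPKM times the deposited model length was a whole multiple of 1 step for 100% of values within 0.01, which gave back whole fragments. Per the submitters' processing notes, CASAVA 1.8 and HISAT2 were used. Counting tool, strandedness, build and annotation are absent from the labels and headers used here, and coordinates are as the files list them.

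Tests planned for counts were replaced. Limma 3.58.1 (R 4.3.3, statmod 1.5.0; trend, robust) was fitted to log2(FPKM + 1) of all 22383 models that reached 1 FPKM in 3 or more of 9 libraries, with group as the only term, and p-values were adjusted by Benjamini-Hochberg, two-sided. This scale understates changes of low models. The fit was tried on simulated data with changes only in models of at least 5 FPKM, so recovery of changes in lower models was not tested. Steps, stretches and tandem groups were made in Python 3.11.15. All replicate pairs differed beyond sampling noise.

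The members, lists and rules were chosen with earlier results of these data known. Named were, per stretch, the 2 higher and 2 lower models of named function with the highest level (at least 5 FPKM), stretch ends with their neighbours, copies in the main tandem groups, models near the threshold, list members, and models called in dgk1 against WT. Other models named were chosen after their values were seen. Alternatives tried were other filters, pseudocounts, centring, thresholds, step sizes and joining rules, model types, a replicate block and each library left out.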

Additional observations from a re-analysis of the deposited data

How the results depend on the processing

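The 186 parted models, 10 stretches and 5065 kb did not move with median centring and moved by less than 1.5 times with a pseudocount of 0.1, without noncoding models, with limma calls in both OE2 comparisons as the criterion, or with a step share of 15% or 40%. With a filter of 5 FPKM there were 99 models in 5 stretches of 2737 kb, and with a difference of at least 2 there were 87 in 5 of 1459 kb. Annotated models alone gave 91 in 6 of 1544 kb. No filter gave 2887 kb, and models that overlap no other tested model, added after seeing the data, gave 5 stretches of 2324 kb. Ends depend on the step and the joining rule: steps of 50 kb gave 1328 kb, steps of 200 kb gave 2 stretches of 9995 kb, no joining gave 1491 kb, and joining over up to 5 steps gave 4 of 8364 kb. With 1 library left out the parted models numbered 119 to 191, the stretches 6 to 10 and their length 1016 to 5596 kb. The low values come from leaving out an OE2 library, because models seen in OE2 alone then fail the filter; with the same models tested, added after seeing the data, the parted models numbered 193 to 203. Without WT 1 and OE2 2 together, added after seeing the data, the length was 1323 kb.

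Calls in OE2 against WT (237) were 121 with the filter of 5 FPKM, 109 to 237 with 1 library out and 100 without WT 1 and OE2 2, and those in OE2 against dgk1 (224) were 113, 99 to 228 and 124. In dgk1 against WT (15) limma called 4 with the filter of 5 FPKM, 8 with a pseudocount of 0.1, 5 with the 6 libraries of the comparison, 1 to 11 with 1 library out and 9 without WT 1 and OE2 2. Of the 15 called models, 4, 8, 5, 1 to 10 and 5 kept the call, and with an OE2 library out and the same models tested 8 to 9. Some that lost it with a dgk1 or WT library out then failed the filter. With the replicate number as a block, 205, 202 and 5 models were called in the 3 comparisons, the 5 all among the 15. Deviations of same-numbered libraries correlated at -0.16 to 0.06, so the numbers do not pair the libraries. No fold change changed sign among the parted models named by rule or the 15 models called in dgk1 against WT. For the parted models the definition fixes this with a library left out or another pseudocount, so nothing is read from it. Other named models were not checked for a change of sign. The balance of counts turned with an OE2 library out. Higher calls against WT then numbered 37 to 41 in place of 142, below 72 to 78 lower calls. Against dgk1 they numbered 29 to 42 in place of 128, below 70 to 81 lower calls. With the same models tested the balance did not turn (117 to 128 higher and 80 to 83 lower, and 110 to 125 and 81 to 88). Depth limits models below about 1 FPKM, which were not tested.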
